A study of Mus musculus with 28 samples.

Results

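Platelet-derived growth factor (PDGF) ligands and receptors were followed in 28 RNA sequencing libraries of mouse bone and bone marrow cells. The 6 genes were taken by symbol, as the 4 ligand genes Pdgfa, Pdgfb, Pdgfc and Pdgfd and the 2 receptor genes Pdgfra and Pdgfrb, from the 25251 genes of the deposited table. The mice were C57 BL6 animals aged 8 to 10 wk, either wild type (Flt3+/+) or homozygous for a knock-in of an internal tandem duplication into the receptor gene Flt3 (Flt3ITD/ITD). Endothelial cells (ECs, sorted as CD45-Ter119-CD31+) and mesenchymal stromal cells (MSCs, sorted as CD45-Ter119-CD31-CD166-Sca1+) came from the cells lining the bone, and mononuclear cells (MNCs) are labelled as bone marrow cells by their source. A second label names bone lining cells for the MNC samples too, so their exact origin is uncertain, and the source was followed here. There were 5 mice per genotype for ECs, 5 for MSCs and 4 for MNCs. An EC or MSC library was made from 100 cells and an MNC library from 200, so that the number of cells and the population cannot be told apart. The duplication was present in every cell of the mutant mice, including the ECs and MSCs. The question was which cells carry mRNA for the ligands, which carry mRNA for the receptors, and whether Flt3-ITD changes either.

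PDGF ligands are secreted dimers that bring receptor tyrosine kinases of class III together on the surface of the target cell. PDGFRα binds the A, B and C chains and PDGFRβ binds the B and D chains. The A and B chains are cut by furin-like convertases before secretion, whereas the C and D chains are released with a blocking CUB domain that extracellular proteases remove. In blood vessels, PDGF-B from the endothelium recruits pericytes that carry PDGFRβ, and in bone marrow PDGFRα is a marker used to isolate MSCs. The sort used here did not include PDGFRα.

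The genes lie apart in the genome. In GRCm38 (GENCODE annotation), Pdgfa spans chr5:138976014-138997370 on the minus strand, Pdgfb chr15:79995874-80014977 on the minus strand, Pdgfc chr3:81036416-81214040 on the plus strand, Pdgfd chr9:6168584-6378850 on the plus strand and Pdgfra chr5:75152292-75198215 on the plus strand. Pdgfa, Pdgfb, Pdgfc and Pdgfra overlap annotated antisense genes that have no row in the table, and Pdgfd overlaps Ddi1 on the other strand. The library kit does not mark strand, so reads of such partners cannot be told apart from reads of the PDGF genes.

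The 250 bases before the annotated start are shown for 3 genes that were called between ECs and MSCs and whose window is in the sequence table used here. Pdgfb and Pdgfrb, which were also called, have no entry there. The 3 are Pdgfd, a ligand gene read mainly in ECs, and Pdgfc and Pdgfra, a ligand and a receptor gene read almost entirely in MSCs. The sequences are from RefSeq (GRCm38.p6, plus strand) and lie at chr9:6168236-6168485 for Pdgfd, chr3:81036166-81036415 for Pdgfc and chr5:75152001-75152250 for Pdgfra. The start used for a window is the position just after its end. For Pdgfd and Pdgfra it lies upstream of the GENCODE start given above, and for Pdgfc it is the same. Capitals mark a TATA box (TATAAA) and an ETS core (CGGAAG, here on the minus strand), which were searched on both strands together with the GC box (GGGCGG) and the CCAAT box (CCAAT).
Pdgfd: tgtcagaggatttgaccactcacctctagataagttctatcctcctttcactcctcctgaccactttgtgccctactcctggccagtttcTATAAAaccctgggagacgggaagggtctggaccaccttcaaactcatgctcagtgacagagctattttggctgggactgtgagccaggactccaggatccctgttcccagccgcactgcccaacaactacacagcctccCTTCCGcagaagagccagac
Pdgfc: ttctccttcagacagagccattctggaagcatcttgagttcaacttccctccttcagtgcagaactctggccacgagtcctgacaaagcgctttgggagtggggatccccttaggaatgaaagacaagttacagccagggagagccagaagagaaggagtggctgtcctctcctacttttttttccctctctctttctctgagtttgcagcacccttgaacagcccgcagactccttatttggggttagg
Pdgfra: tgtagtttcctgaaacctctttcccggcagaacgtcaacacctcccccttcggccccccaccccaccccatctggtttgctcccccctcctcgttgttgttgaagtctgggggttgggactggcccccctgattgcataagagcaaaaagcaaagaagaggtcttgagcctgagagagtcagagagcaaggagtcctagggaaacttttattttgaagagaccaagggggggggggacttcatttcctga
The Pdgfd window held a TATA box starting 160 bases before the start used for the window and an ETS core starting 20 bases before it. The motifs did not overlap. None of the 4 motifs was found in the windows of Pdgfc and Pdgfra. Of 32851 windows of this length over all genes, 12.4% held the TATA box, 13.6% the ETS core, 32.7% the GC box and 33.8% the CCAAT box. GC content was 53.6% for Pdgfd, 50.8% for Pdgfc and 54.4% for Pdgfra, beside a median of 52.4% over all windows. The windows of Pdgfa lie partly within annotated exons and are not shown.

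Libraries held between 6377013 and 33880743 counts. Levels are given as RPKM, the count scaled to transcript length and library total, and levels of different genes are compared on that scale only. The sort genes followed the labels. Pecam1 (CD31) had 279.6 ± 63.8 RPKM in ECs (SD, n = 10) and 0.246 ± 0.606 in MSCs (SD, n = 10), Ptprc (CD45) had 142.1 ± 14.8 in MNCs (SD, n = 8) and 0.073 ± 0.165 in MSCs, and Alcam (CD166) had 0.433 ± 1.23 in MSCs. Ly6a (Sca1) was read at 2756 ± 399.5 RPKM in MSCs and at 4759 ± 883.6 in ECs. Flt3 itself had 7.79 ± 4.21 RPKM in MNCs, 0.207 ± 0.456 in ECs and 0.043 ± 0.0882 in MSCs, and since the duplication is an insertion within the gene its level does not check the genotype. All 8 endothelial markers exceeded 3 counts in every EC library, as did all 8 mesenchymal markers in every MSC library and all 8 leukocyte markers in every MNC library. Flt3ITD/ITD EC library 2 stood apart with 214.2 RPKM over the leukocyte list, against 4.08 to 22.7 in the other EC libraries, and with 778 counts of Ptprc. Its 5 measured neutrophil genes summed to 23480 RPKM, against at most 1103 in the other EC libraries and 34231 to 149931 in MNCs. Flt3ITD/ITD MSC library 5 likewise had 169.1 RPKM over the leukocyte list, against 0.95 to 54.4 in the other MSC libraries, and 5066 over the neutrophil list, against at most 301.3. Without either of them the members called between ECs and MSCs were still 5, and the log2 fold changes of Pdgfd (2.53 and 2.70) and Pdgfrb (-3.75 and -3.88) moved little. Within a group, replicates were separate mice, and the sample titles do not state whether different populations shared mice.

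Pdgfb was an endothelial transcript. The 5 Flt3+/+ EC libraries had 40.1, 25.7, 43.5, 16.4 and 22.9 RPKM, and the 5 Flt3ITD/ITD EC libraries had 29.3, 26.5, 50.9, 18.2 and 12.01. Of the 10 MSC libraries, 8 held no Pdgfb read and the other 2 held 1 each. ECs and MSCs did not overlap. Over the pooled counts, Pdgfb was 11089-fold higher in ECs than in MSCs, with an interval of 3070 to 91562 that covers the counting error of the 2 MSC reads alone. Its log2 fold change of 12.81 (SE 1.25) had an adjusted p of 6.71e-08 in edgeR's quasi-likelihood test with Benjamini-Hochberg adjustment, the test used for every comparison of populations below. With 8 of 10 MSC libraries at 0, the fitted value depends on the prior count and is no bound.

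MNCs carried a trace of Pdgfb. The counts were 3, 17, 43 and 1 in Flt3+/+ MNCs and 0, 0, 44 and 1 in Flt3ITD/ITD MNCs. Their mean of 0.274 ± 0.392 RPKM (SD, n = 8) was 104.3-fold below that of ECs, with a log2 fold change of 6.61 (SE 1.02, adjusted p = 1.76e-05), and the fitted log2 fold change of MSCs over MNCs was -6.20 (SE 1.12, adjusted p = 0.000102). Pdgfb passed the filter on low counts through ECs, which are outside that comparison, and it was not tested when MSCs and MNCs were fitted alone. The value also rested on few libraries: without Flt3ITD/ITD MNC library 3 the log2 value was -3.90. Limma on log2(RPKM + 1) did not call it (-0.29, adjusted p = 0.325), but the added 1 shrinks differences between levels under 1 RPKM, so limma cannot decide here. Without the same library the EC value rose to 8.91. Platelets store PDGF-B, and the 8 megakaryocyte and platelet genes summed to 3.86 RPKM in Flt3ITD/ITD MNC library 3, the lowest of the 8 MNC libraries, whose range was 3.86 to 31.6. Pf4, Itga2b and Gp9, their first markers, had 0, 11 and 39 counts in that library. Flt3+/+ MNC library 3, with 43 Pdgfb counts, had a sum of 19.3 RPKM and 20, 187 and 91 counts of the same genes. The part of these cells in the Pdgfb counts was not tested.

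Pdgfd was the most abundant ligand mRNA of ECs. The Flt3+/+ EC libraries had 40.2, 96.0, 102.6, 3.41 and 127.3 RPKM and the Flt3ITD/ITD EC libraries had 43.8, 149.6, 112.5, 73.6 and 42.0. One library, Flt3+/+ EC library 4, lay far below the rest. MSCs carried a lower level, with a range of 4.69 to 21.4 and a median of 8.71 RPKM, and Flt3+/+ EC library 4 was the 1 EC library not above the highest MSC value. The mean of 79.1 ± 46.1 RPKM in ECs (SD, n = 10) was 7.46-fold that of MSCs (log2 fold change 2.69, SE 0.57, adjusted p = 0.000816) and 301.3-fold that of MNCs (log2 fold change 10.70, SE 0.98, adjusted p = 8.73e-09). MSCs were also above MNCs (log2 fold change 8.01, SE 0.92, adjusted p = 2.27e-07), and 3 of 8 MNC libraries held any Pdgfd read. The 4 Flt3ITD/ITD MNC libraries held none, so the fitted values against MNCs depend on the prior count. For ECs the log2 value was 6.96 in Flt3+/+ libraries alone and 14.59 in Flt3ITD/ITD libraries alone. For MSCs it was 4.21 and 11.83. In bulk RNA, fewer cells that carry a transcript and less of it per cell cannot be told apart.

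Pdgfc was the counterpart of Pdgfb. The Flt3+/+ MSC libraries had 11.3, 17.9, 17.0, 21.2 and 10.02 RPKM and the Flt3ITD/ITD MSC libraries had 26.8, 4.29, 5.93, 12.9 and 9.43. The 10 EC libraries together held 7 reads, with at most 3 in a library, so Pdgfc was at or under the floor of 3 counts in every one. MSCs and ECs did not overlap, and over pooled counts Pdgfc was 1463-fold higher in MSCs, with an interval of 710.2 to 3640 for the counting error of the EC reads. The fitted log2 fold change of ECs over MSCs was -10.73 (SE 1.14, adjusted p = 1.65e-07). In MNCs, 7 of 8 libraries held no read and Flt3+/+ MNC library 4 held 63. MSCs exceeded MNCs by 9.55 on the log2 scale (SE 1.24, adjusted p = 1.3e-06), or by 13.19 without that library. Both are fitted values that depend on the prior count, since most MNC libraries held no read.

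Pdgfa was shared by both stromal populations. Its mean was 11.4 ± 7.86 RPKM in ECs (SD, n = 10) and 9.18 ± 4.93 in MSCs (SD, n = 10), with ranges of 1.44 to 22.5 and 2.03 to 17.9. The difference was not called (log2 fold change 0.19, SE 0.58, adjusted p = 0.856), and it was -0.31 in Flt3+/+ libraries alone (adjusted p = 0.852) and 0.78 in Flt3ITD/ITD libraries alone (adjusted p = 0.537). Both populations exceeded MNCs without overlap, ECs by 5.50 (SE 0.79, adjusted p = 2.91e-06) and MSCs by 5.31 (SE 0.78, adjusted p = 3.92e-06) on the log2 scale. The 8 MNC libraries held 44 Pdgfa counts in all, with at most 15 in one.

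**Figure D1:**
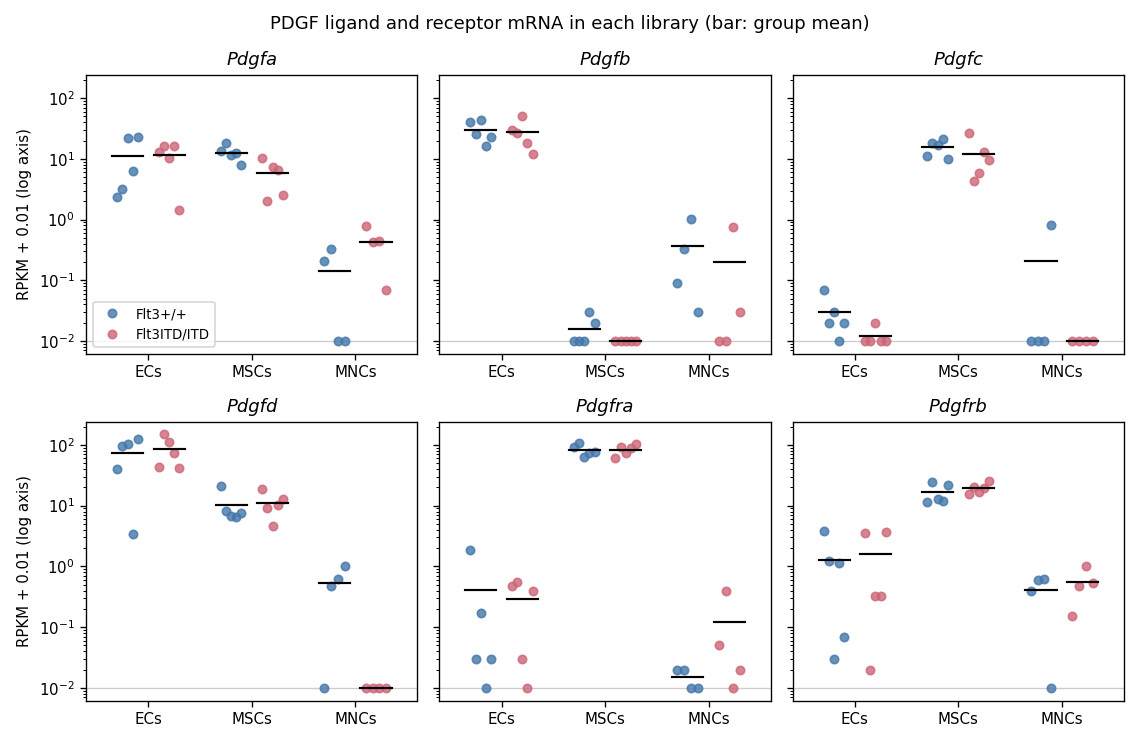
RPKM of each PDGF ligand and receptor gene in each of the 28 libraries, on a log axis after adding 0.01, with a point per mouse, a bar at the group mean and a grey line at the position of a value of 0. Pdgfb and Pdgfd stand highest in ECs, Pdgfc, Pdgfra and Pdgfrb in MSCs, and Pdgfa is at like levels in both, while the 2 genotypes overlap in most groups.

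The ligand mRNA of ECs and MSCs thus had different compositions. Summed over the 4 ligands, ECs had 119.0 ± 56.7 RPKM and MSCs 33.5 ± 13.0 (SD, n = 10 each). Of this sum Pdgfd made up 61.0% ± 19.8, Pdgfb 28.7% ± 16.0 and Pdgfa 10.3% ± 7.07 in ECs. Pdgfd led in 9 of 10 EC libraries, and Pdgfb led in Flt3+/+ EC library 4, where Pdgfd was at 13.1% of the sum. In MSCs, Pdgfc made up 39.6% ± 9.18, Pdgfd 33.5% ± 14.8 and Pdgfa 26.9% ± 10.6. Their order varied between mice, with Pdgfc first in 6 of 10 MSC libraries, Pdgfd in 3 and Pdgfa in 1. Neighbours in the order of the means, Pdgfc and Pdgfd, and Pdgfd and Pdgfa, did not differ beyond their spread, since Pdgfc exceeded Pdgfd in 7 of 10 libraries and Pdgfd exceeded Pdgfa in 5 of 10.

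**Figure D2:**
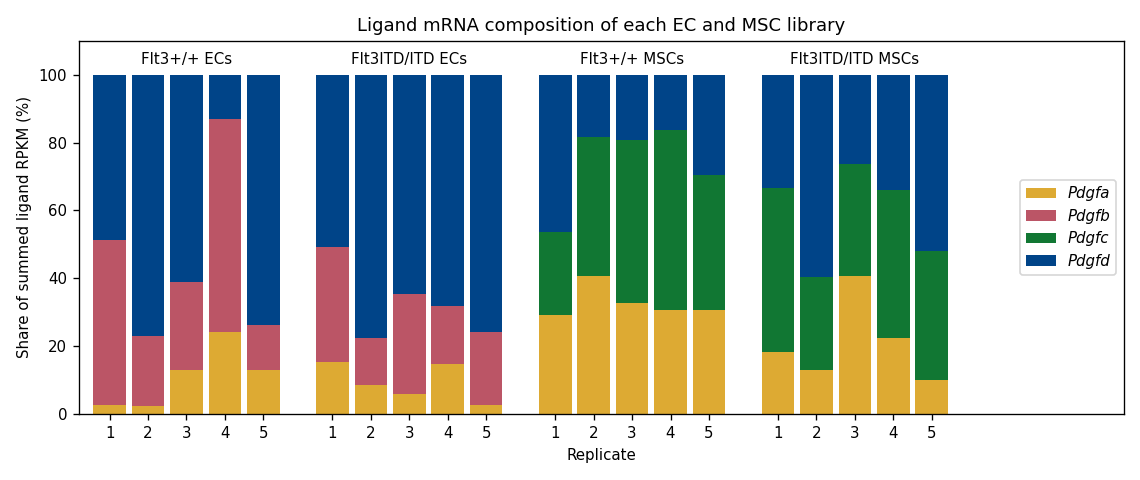
Share of each ligand in the summed RPKM of the 4 ligand genes, as percent, with a stacked bar for each EC and MSC library. Pdgfb appears in EC bars and Pdgfc in MSC bars, and Flt3+/+ EC library 4 differs from the other EC bars in its 13.1% share of Pdgfd.

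Pdgfra, which encodes the α receptor, was a transcript of MSCs. The Flt3+/+ MSC libraries had 92.1, 106.9, 64.2, 73.6 and 75.6 RPKM and the Flt3ITD/ITD MSC libraries had 61.4, 92.4, 72.8, 87.7 and 103.7. With a mean of 83.0 ± 15.8 RPKM (SD, n = 10) it ranked 1018th of 25251 genes in MSCs. It was also even between mice: its coefficient of variation was 0.191, and 14.3% of the 1228 genes with a mean within 2-fold of it varied less. ECs did not reach this level in any library. Their highest value was 1.82 RPKM in Flt3+/+ EC library 1, which held 161 of the 318 Pdgfra counts of all EC libraries, and 2 EC libraries held none. MSCs exceeded ECs 242.1-fold in mean RPKM (log2 fold change of ECs over MSCs -8.26, SE 1.02, adjusted p = 6.01e-07), with a log2 value of -9.78 without Flt3+/+ EC library 1.

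MNCs held 40 Pdgfra counts in all, 33 of them in Flt3ITD/ITD MNC library 2. The log2 fold change of MSCs over MNCs was 12.03 (SE 1.36, adjusted p = 7.44e-08), or 13.19 without that library. ECs were called above MNCs (3.77, SE 1.10, adjusted p = 0.00677), but the groups overlapped, the size of the difference depended on single libraries, and not every fit called it. The value was 2.28 without Flt3+/+ EC library 1 and 4.93 without Flt3ITD/ITD MNC library 2. Neither limma on log2(RPKM + 1) nor the Flt3ITD/ITD libraries alone called it (adjusted p = 0.281 and 0.362). At levels this low the added 1 of limma's scale shrinks differences, so its result cannot decide.

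Pdgfrb, which encodes the β receptor and lies at chr18:61045150-61085061 on the plus strand, had its highest level in MSCs too. The Flt3+/+ MSC libraries had 11.4, 24.9, 12.9, 12.1 and 21.6 RPKM and the Flt3ITD/ITD MSC libraries had 15.3, 19.9, 16.9, 19.7 and 24.97. Within each MSC library Pdgfra exceeded Pdgfrb, by 3.49-fold to 8.06-fold with a mean of 4.85 ± 1.32 (SD, n = 10). The coefficient of variation of Pdgfrb was 0.281, and 10.8% of 3370 genes of like level varied less. MSCs exceeded ECs 12.7-fold in mean RPKM without overlap (log2 fold change of ECs over MSCs -3.91, SE 0.86, adjusted p = 0.000882). They exceeded MNCs 38.5-fold, again without overlap (log2 fold change 5.39, SE 1.02, adjusted p = 9.92e-05).

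Within ECs, Pdgfrb was the most uneven of the members that had a mean of at least 1 RPKM there. The Flt3+/+ EC libraries had 3.85, 1.22, 0.02, 1.12 and 0.06 RPKM and the Flt3ITD/ITD EC libraries had 3.58, 0.01, 0.32, 0.31 and 3.68. The coefficient of variation was 1.15, and 39.5% of 2735 genes of like level varied less. The 3 libraries above 3 RPKM were also the 3 with the largest sum over 12 pericyte and smooth muscle genes, at 1218, 1258 and 981.4 RPKM, against 211.2 to 687.0 in the other 7. Rgs5, the first pericyte marker, had at least 1621 counts in every EC library, and Cspg4, the second, had 72 counts in Flt3+/+ EC library 1 and at most 3 in each other EC library. Single markers did not follow Pdgfrb throughout: Rgs5 was highest in Flt3+/+ EC library 5 (27288 counts), where Pdgfrb was 0.06 RPKM, and Acta2, the third marker, was highest in Flt3+/+ EC library 2 (6266 counts), with 4388, 1040 and 1045 counts in the 3 libraries with the most Pdgfrb. Between populations the list ran against Pdgfrb: it summed to 34.3 to 168.9 RPKM in Flt3+/+ and 53.8 to 180.2 in Flt3ITD/ITD MSC libraries. These sums were below those of every EC library, although Pdgfrb was higher in MSCs. The part of pericyte transcripts in the Pdgfrb level was not tested. The 8 mesenchymal genes summed to 3494 to 6189 RPKM in EC libraries and 29063 to 33465 in MSC libraries, and 3 or 4 of them exceeded 3 counts in every EC library of a genotype. The list includes Ly6a, which was high in ECs. Its first markers Col1a1 and Col3a1 did not exceed 165 counts in an EC library, against at least 14729 in any MSC library, and Dcn reached 2161 counts in Flt3+/+ EC library 2 and 2642 in Flt3ITD/ITD EC library 5. The log2 difference of Pdgfrb between ECs and MNCs (1.48, SE 0.85, adjusted p = 0.16) was not called, but it was without Flt3+/+ EC library 3 (1.64, adjusted p = 0.0994), without Flt3+/+ EC library 5 (1.69, adjusted p = 0.0996) or without Flt3ITD/ITD EC library 2 (1.64, adjusted p = 0.086).

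**Figure D3:**
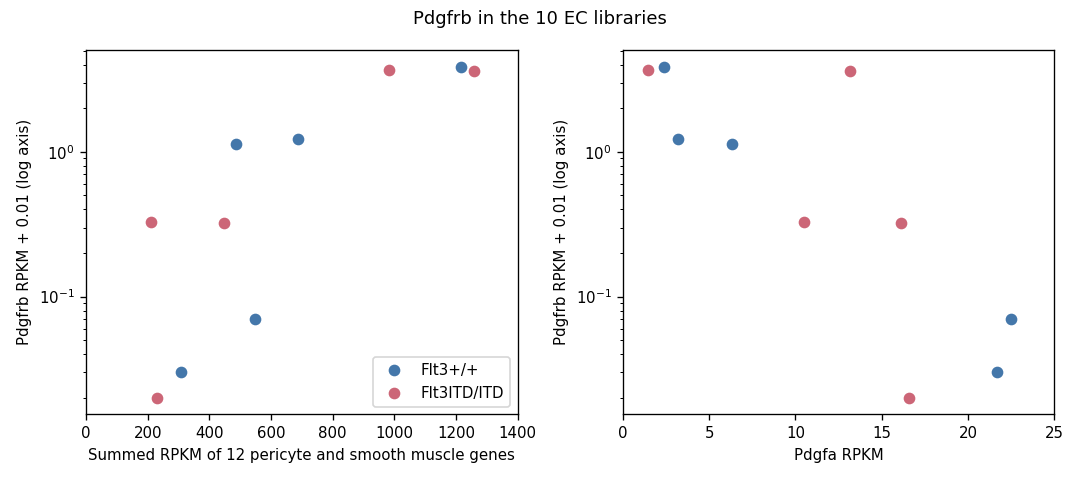
Pdgfrb RPKM (log axis, after adding 0.01) in the 10 EC libraries against the summed RPKM of 12 pericyte and smooth muscle genes (left) and against Pdgfa RPKM (right), with a point per mouse coloured by genotype. The 3 libraries with Pdgfrb above 3 RPKM have the 3 largest sums, and the 3 with the highest Pdgfa have at most 0.06 RPKM of Pdgfrb.

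Counted over the members, 2 of 6 were called higher in ECs than in MSCs (Pdgfb and Pdgfd), beside 16.3% of the 16897 genes tested, and 3 of 6 were called higher in MSCs (Pdgfc, Pdgfra and Pdgfrb), beside 16.6%. A call required an adjusted p below 0.1 and a ratio of at least 2 between the mean RPKM. Against MNCs, 4 of 6 were higher in ECs (Pdgfa, Pdgfb, Pdgfd and Pdgfra) and none in MNCs, beside 23.1% and 22% of genes. Between MSCs and MNCs, 5 of 6 were higher in MSCs, beside 22.2% of genes. The sixth, Pdgfb, was called higher in MNCs (22% of genes) in this model, but it passed the filter through ECs. It was not tested in a fit of MSCs and MNCs alone, and its value rested on few libraries. All 6 members passed the filter on low counts in this model, since each was high in at least 1 population. The same 5 members were called between ECs and MSCs in Flt3+/+ libraries alone and in Flt3ITD/ITD libraries alone.

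**Figure D4:**
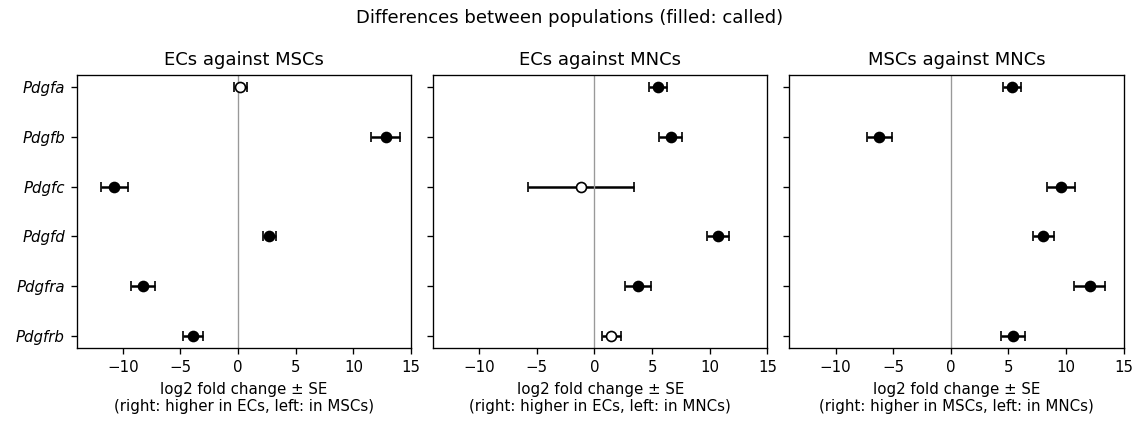
The log2 fold change of each member between populations from edgeR, with bars of 1 SE, filled points for called differences and open points for the others. Pdgfb, Pdgfc and Pdgfra have the largest differences between ECs and MSCs (12.81, -10.73 and -8.26), and Pdgfc between ECs and MNCs has the widest error (SE 4.61).

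No member was called between genotypes in any population by edgeR's quasi-likelihood test. Of the members, 5 passed the filter in ECs (not Pdgfc), 5 in MSCs (not Pdgfb) and Pdgfrb in MNCs, and 0 of these had an unadjusted p below 0.05. The background of called genes was low as well, at 0.0081% in ECs, 0.0295% in MSCs and 0.0144% in MNCs. Among all genes, an unadjusted p below 0.05 was found for 616 of the 12351 tested in ECs, for 575 of the 13574 in MSCs and for 1447 of the 13926 in MNCs. DESeq2 called 0, 0 and 1 of the members in the 3 populations, and edgeR's exact test called 0 in each.

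The intervals differed in width between members. In MSCs, Pdgfra had 82.5 ± 16.9 RPKM in Flt3+/+ and 83.6 ± 16.6 in Flt3ITD/ITD mice (SD, n = 5 each), and its log2 fold change of 0.03 had a 95% interval of -0.40 to 0.46. That of Pdgfrb in MSCs was 0.28 with an interval of -0.32 to 0.88. In ECs, Pdgfb had 29.7 ± 11.6 and 27.4 ± 14.8 RPKM (log2 fold change -0.09, interval -1.09 to 0.91) and Pdgfd 73.9 ± 50.7 and 84.3 ± 46.4 (0.19, interval -1.50 to 1.88). A 2-fold change of Pdgfra in MSCs therefore lies outside the interval, whereas a change of that size in Pdgfd in ECs lies inside it. For the receptors in ECs the intervals were wider, -4.68 to 2.85 for Pdgfra and -3.15 to 3.75 for Pdgfrb.

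Pdgfa in MSCs had the smallest p of the 18 comparisons of a member between genotypes. The Flt3+/+ MSC libraries had 13.4, 17.9, 11.7, 12.3 and 7.80 RPKM and the Flt3ITD/ITD MSC libraries had 10.2, 2.03, 7.28, 6.61 and 2.53. All but 1 of the Flt3ITD/ITD values lay below the lowest Flt3+/+ value. A list of 6 osteoblast genes summed to 1794 to 3319 RPKM in the Flt3+/+ MSC libraries and to 2824, 154.6, 1401, 1189 and 527.2 in the Flt3ITD/ITD MSC libraries, of which all but library 1 were again below the lowest Flt3+/+ value. Within the Flt3ITD/ITD libraries the order of these sums was that of Pdgfa. Within the Flt3+/+ libraries it was not: library 2, with the most Pdgfa, had a sum of 1826 RPKM, and library 1 had 3319. Of the first 3 genes of the list, Ibsp had 159550, 5574, 88731, 33591 and 6545 counts in the Flt3ITD/ITD libraries. Bglap had another order (514, 595, 792, 6958 and 1145 counts), and Sp7 was read there only in library 2 (195 counts). The osteoblast list was not the only one to differ. The 6 leptin receptor stroma genes summed to 147.1 to 495.1 RPKM in the Flt3+/+ MSC libraries. In the Flt3ITD/ITD MSC libraries they summed to 544.6, 550.9, 238.7, 1242 and 854.7, all but library 3 above the highest Flt3+/+ value. Their order was not that of Pdgfa, and counts of Lepr, Cxcl12 and Ebf3, the first 3 genes, overlapped between genotypes. The part of osteoblast or leptin receptor stroma transcripts in the Pdgfa level was not tested. The Pdgfa means differed by -6.89 RPKM with a two-sided exact permutation p of 0.0159 and, after Benjamini-Hochberg adjustment over the 18 exact permutation tests, 0.286. The log2 fold change was -1.08 (SE 0.58, edgeR adjusted p = 0.999), with a 95% interval of -2.42 to 0.27, and stayed between -1.38 and -0.86 when each library was left out in turn. The result fails the correction in both tests. With 5 mice against 5 the smallest p that the exact permutation test allows is 0.00794, and with 4 against 4 it is 0.0286. Both are for values without ties, and libraries tied at 0 can raise them.

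In MNCs, Pdgfd was read in 3 of 4 Flt3+/+ libraries, with 0, 14, 15 and 38 counts, and in none of the 4 Flt3ITD/ITD libraries. Taking 3 counts in each of the latter as the floor, the Flt3ITD/ITD mean was at least 5.65-fold lower. The exact permutation p was 0.143 (adjusted 0.643). With 5 of the 8 MNC libraries at 0, this is the smallest p that the test allows for these values, so it cannot decide the question. The gene did not pass the filter of the main test. DESeq2 called it (adjusted p = 0.0518), whereas edgeR's quasi-likelihood test without the filter did not (adjusted p = 0.462). In the model over all libraries, the genotype effect on Pdgfd differed between ECs and MNCs by 7.67 on the log2 scale with an adjusted p of 0.233, and between MSCs and MNCs by 7.68 with an adjusted p of 0.355, so neither difference passed. The erythroid genes in the same libraries summed to 2.58 to 1736 RPKM in Flt3+/+ and 42.6 to 269.2 in Flt3ITD/ITD MNCs, and the neutrophil genes to 128902 to 149931 and 34231 to 142419. The megakaryocyte and platelet genes summed to 13.0, 17.4, 19.3 and 31.6 RPKM in the Flt3+/+ MNC libraries, in the same order as their Pdgfd counts. They summed to 9.67, 12.5, 3.86 and 5.30 in the Flt3ITD/ITD MNC libraries, without overlap between genotypes. The first 3 genes of the list did overlap. Pf4 had 65, 22, 20 and 22 counts in Flt3+/+ and 21, 0, 0 and 6 in Flt3ITD/ITD MNC libraries, and was highest in the Flt3+/+ library without Pdgfd reads. Itga2b had 17, 108, 187 and 59 against 34, 123, 11 and 55, and Gp9 had 22, 91, 91 and 397 against 49, 88, 39 and 25. The part of these cell types in the Pdgfd counts was not tested.

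**Figure D5:**
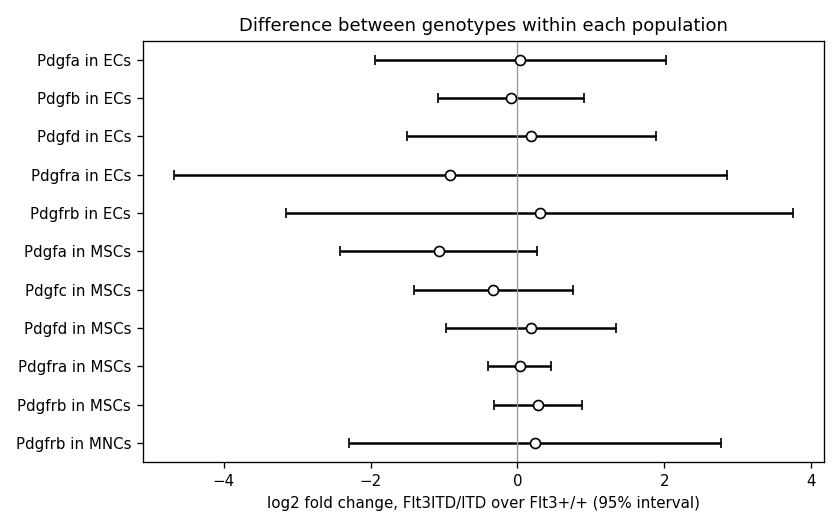
The log2 fold change of Flt3ITD/ITD over Flt3+/+ mice from edgeR, with its 95% interval, for the 11 pairs of member and population that passed the filter on low counts. Every interval includes 0, and Pdgfra and Pdgfrb in MSCs have the narrowest.

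Members were then compared with each other across the 10 libraries of a population, for the 16 pairs in which both had a mean of at least 1 RPKM. In ECs, Pdgfa was lower where Pdgfrb was higher (Spearman's rho = -0.87, permutation p = 0.00223, adjusted over 16 pairs 0.0357). Pearson's r of log2(RPKM + 1) was -0.77 (permutation p = 0.0144, adjusted 0.166) and -0.50 without the 2 libraries farthest from the median of Pdgfa, so that the linear relation rests in part on those. It was -0.78 after the genotype means had been removed. The points share 100-cell libraries of different depth. The lowest Pdgfrb values rested on few counts: 1 each in Flt3ITD/ITD EC library 2 and Flt3+/+ EC library 3, and 10 in Flt3+/+ EC library 5. The first of these libraries is the one with the high neutrophil sum, and rho was not computed without it. The pair of Pdgfd and Pdgfrb in ECs had a rho of -0.78 (permutation p = 0.0102, adjusted 0.0815) and an r of -0.46 (permutation p = 0.178, adjusted 0.579), which was -0.91 without the 2 libraries farthest from the median of Pdgfd. In MSCs, Pdgfa and Pdgfc had an r of 0.71 (permutation p = 0.0208, adjusted 0.166), and both receptors together had an r of 0.58 (permutation p = 0.0802, adjusted 0.428). The pair of Pdgfa and Pdgfd in ECs had a rho of 0.71 (permutation p = 0.0278, adjusted 0.135). Of the 16 pairs, Pdgfa and Pdgfrb in ECs was the 1 pair with an adjusted p below 0.05, by rank and not by Pearson's r.

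The genes whose log2(RPKM + 1) followed each member most closely over the 28 libraries were taken from 13727 genes, 3 for each member. For Pdgfb these were Dysf (r = 0.99), C1qtnf9 (0.98) and Rbp7 (0.98), which had means of 19.7, 138.3 and 322.7 RPKM in ECs and at most 0.053 in MSCs. For Pdgfd they were Ehd2 (0.93), Lims2 (0.92) and Fmo1 (0.92), with means of 60.8, 215.5 and 411.4 RPKM in ECs. The points share the 3 populations.
For Pdgfc the likest genes were Col16a1, a collagen, the secreted Dkk3 and the matrix protein gene Thbs4 (r = 0.98 each), and for Pdgfra they were Mfap5 and Pcolce2, both of the extracellular matrix, and Col1a1, the main collagen of bone (0.99 each). For Pdgfrb they were Boc (0.97), the protease gene Ctsk (0.97) and Ak1 (0.96). Pdgfa, with a like level in ECs and MSCs, had the lowest coefficients, with Mtmr11 (0.88), Pdlim4 (0.88) and the laminin gene Lamb1 (0.87). With a pseudocount of 0.1 in place of 1, all 3 genes of Pdgfa stayed among its likest, but only 2 for Pdgfc and Pdgfd, 1 for Pdgfb and Pdgfrb and 0 for Pdgfra.

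The proteins that process the ligands were measured as well. Of 7 processing genes, 3 were called higher in MSCs than in ECs, none was higher in ECs and 4 were not called, beside 16.6% of all genes higher in MSCs and 16.3% higher in ECs. Furin, a convertase of the A and B chains, had 7.99 ± 2.61 RPKM in ECs and 6.81 ± 1.79 in MSCs (SD, n = 10 each; log2 fold change 0.00, SE 0.22, adjusted p = 0.9999). Plat, which encodes the tissue plasminogen activator that cuts the C chain, had 18.6 ± 13.2 RPKM in ECs and 59.1 ± 13.4 in MSCs, where Pdgfc was also read (log2 fold change of ECs over MSCs -1.88, SE 0.36, adjusted p = 0.000249). Plau, which encodes the urokinase that cuts the D chain, was 7.98 ± 7.90 in ECs and 25.8 ± 13.4 in MSCs (-2.03, SE 0.46, adjusted p = 0.00122). St14, which encodes matriptase, a further protease of the D chain, was near 0 in both, at 0.023 and 0.012 RPKM. The third called gene was the convertase gene Pcsk6 (1.76 ± 2.51 and 46.1 ± 16.5 RPKM, log2 fold change -4.94, adjusted p = 0.00031), which was named after its values were seen.

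Of 4 genes for proteins that bind the ligands or act beside the receptors, 1 was higher in ECs and 3 were higher in MSCs. Among all genes tested, 16.3% were called higher in ECs and 16.6% in MSCs. Nrp1, a co-receptor, had 226.2 ± 41.9 RPKM in ECs and 35.6 ± 22.7 in MSCs (log2 fold change 2.54, SE 0.24, adjusted p = 9.34e-09). Lrp1, an endocytic receptor that associates with PDGFRβ, had 0.308 ± 0.636 in ECs and 38.9 ± 9.11 in MSCs (-7.73, SE 0.94, adjusted p = 5e-07). Sparc, a matrix protein that binds the B chain, reached 801.4 ± 185.1 in ECs and 2979 ± 759.2 in MSCs (-2.14, SE 0.49, adjusted p = 0.00141), and Thbs1 7.04 ± 5.74 and 77.6 ± 36.6 (-3.85, SE 0.63, adjusted p = 3.22e-05).

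The other class III receptors were read mainly in MNCs, where both PDGF receptors were low. Pdgfra had 0.0575 ± 0.135 RPKM there and exceeded 3 counts in 2 of 8 libraries. Pdgfrb had 0.468 ± 0.311 RPKM (SD, n = 8) and exceeded 3 counts in 7 of 8. Csf1r, the receptor of macrophage colony-stimulating factor, had 44.8 ± 16.2 RPKM in MNCs (SD, n = 8), 0.037 ± 0.0978 in MSCs and 0.004 ± 0.00966 in ECs, and was called between MSCs and MNCs (log2 fold change -11.87, SE 1.04, adjusted p = 5.35e-08). Kit, the receptor of stem cell factor, had 8.04 ± 4.90 in MNCs, 1.34 ± 2.05 in MSCs and 1.68 ± 4.71 in ECs, and was called below MNCs in ECs (-4.24, SE 1.44, adjusted p = 0.0182) but not in MSCs (-2.39, SE 1.33, adjusted p = 0.151). Each is the nearest downstream neighbour of a PDGF receptor gene among coding genes, Kit 376700 bases after Pdgfra and Csf1r 15536 bases after Pdgfrb.

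Downstream of the receptors, 37 signalling genes, 12 negative regulators and 9 early response targets were listed. Between ECs and MSCs, 7 signalling genes were higher in ECs, 5 were higher in MSCs and 25 were not called, beside 16.3% of all genes higher in ECs and 16.6% higher in MSCs. The largest differences in each direction were those of Slc9a3r2, a scaffold protein that binds PDGF receptors (161.0 ± 43.3 RPKM in ECs, 4.46 ± 5.68 in MSCs, log2 fold change 5.23), and of the kinase genes Yes1 (2.62), Prkca (-5.72) and Src (-5.71). Of the negative regulators, 3 were higher in ECs, with Cbl (3.05), a ubiquitin ligase, and Spry4 (1.62) first, and 2 were higher in MSCs, Ptprj (-3.32), a receptor phosphatase, and Spry2 (-1.97). Myc was the 1 early response gene called, with 98.7 ± 57.9 RPKM in MSCs and 20.5 ± 15.1 in ECs (-2.48, SE 0.50, adjusted p = 0.000361).
Over the 72 listed genes, 11 were higher in ECs and 14 in MSCs, shares near the 16.3% and 16.6% of all genes, and the median log2 fold change was -0.23, beside -0.01 over all genes tested. Against MNCs, 34 were higher and 12 lower in ECs, beside 23.1% and 22% of all genes (median 0.75, beside 0.00 over all genes). In MSCs 32 were higher and 9 lower than in MNCs, beside 22.2% and 22% (0.79, beside -0.02). Of the 9 early response targets, 7 were higher in ECs and 8 in MSCs than in MNCs. The bone lining cells were freed by warm collagenase digestion, and whether the MNCs were treated alike is uncertain. Digestion and population therefore cannot be told apart for these genes, and activity of the PDGF receptors was not tested. Between genotypes, 0 of the 64, 68 and 63 listed genes tested in ECs, MSCs and MNCs were called by edgeR's quasi-likelihood test.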

How the data were processed

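RNA from 100 sorted ECs or MSCs or 200 MNCs per mouse was amplified with the SMARTer Ultra Low kit (15 cycles) and sequenced as 51 bp single-end reads. The authors aligned reads to mm10 transcripts with Bowtie, discarded reads without a unique position and deposited RSEM counts per gene, which are whole numbers here. The authors also deposited an RPKM value for each count. Tool versions are not given in the sources used here. Without molecular identifiers, intervals from counts cover counting error only.

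Counts were tested with edgeR 4.0.16 (R 4.3.3): filterByExpr, TMM factors and the quasi-likelihood test, with Benjamini-Hochberg adjustment over all genes tested. Calls required both an adjusted p below 0.1 and a ratio of mean RPKM of at least 2. Populations were compared in 1 model of 6 groups over 28 libraries, genotypes within each population. The SE is the size of the log2 fold change divided by the square root of F, and 95% intervals of genotype effects multiply it by the t quantile at the number of mice minus 2. That quantile replaced a normal one after the values had been seen, because the groups are small, and made the intervals wider. RPKM of members were compared by two-sided exact permutation tests (scipy 1.17.1), and pairs of members with 100000 resamples.

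Genes that could be named were the members, the genes of the sort and Flt3, and the first 3 genes of each marker list. Others were fixed genes for processing, binding and class III receptors, any pathway gene called between genotypes, and the 3 genes most like each member. Up to 2 genes per other role and direction, with the largest difference between ECs and MSCs, were added. Not all of these are given: the endothelial, leukocyte, neutrophil and erythroid lists are described by sums or by numbers of genes over 3 counts, and the macrophage list is not described. The members and gene lists were chosen with earlier results of these data known. Alternatives were DESeq2 1.42.0, limma 3.58.1 on log2(RPKM + 1), edgeR's exact test, other size factors, no filter, a replicate block, 1 genotype alone and each library left out. The scripts were tested on simulated data. Library totals ranged from 6377013 to 33880743 counts.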

Additional observations from a re-analysis of the deposited data

Results flagged for a closer look

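Among 29 groups of 4 or 5 libraries in which a member was read, 5 held a library far from the others by Dixon's criterion. Its nominal rate of 5% is for normally distributed values and does not hold where most libraries of a group are near 0. The count of 5 is therefore not read as an excess. In Flt3ITD/ITD MNCs, library 3 had 0.74 RPKM of Pdgfb (44 counts) against at most 0.02 in the others, and library 2 had 0.39 RPKM of Pdgfra (33 counts) against at most 0.04. In Flt3+/+ MNCs, library 4 had 0.79 RPKM of Pdgfc (63 counts), where the others had 0. In Flt3+/+ ECs, library 1 had 1.82 RPKM of Pdgfra (161 counts) against at most 0.16. In Flt3+/+ MSCs, library 1 had 21.36 RPKM of Pdgfd (451 counts) against at most 8.12. The first 4 are levels under 2 RPKM in populations where the gene was otherwise near 0, and their removal moved the differences from the other populations as given above.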

How the results depend on the processing

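The 5 members called between ECs and MSCs stayed at 5 in every alternative run, those between ECs and MNCs numbered 3 to 5 and those between MSCs and MNCs 5 or 6. Pdgfc between ECs and MNCs was called in Flt3+/+ libraries alone (-3.60, adjusted p = 0.0756) and turned to 1.35 in Flt3ITD/ITD libraries alone. It passed the filter through MSCs, which are outside that comparison, and was not tested when ECs and MNCs were fitted alone. The EC libraries held 7 Pdgfc reads in all, and Flt3+/+ MNC library 4 held all 63 reads of MNCs. Without that library the value was 2.46 (edgeR adjusted p = 0.091), so neither direction is read as a result. Genes called between genotypes numbered 362, 197 and 327 in ECs, MSCs and MNCs by DESeq2, 16, 19 and 146 by edgeR's exact test, and 0, 2 and 3 without the filter, and DESeq2 called 1 member in MNCs. The cause was not tested. Genes called between ECs and MSCs numbered 3599, and between MSCs and MNCs 4839, in Flt3ITD/ITD libraries alone, which are fewer samples. The log2 value of Pdgfa between ECs and MSCs was -0.31 in Flt3+/+ libraries alone. With each library left out, genes called between genotypes ranged from 0 to 0 in ECs, 0 to 2 in MSCs and 0 to 1 in MNCs. Genotype log2 fold changes that turned were those of Pdgfa (-0.22 to 0.46), Pdgfb (-0.44 to 0.13), Pdgfd (-0.14 to 0.48), Pdgfra (-1.27 to 2.10) and Pdgfrb (-0.30 to 1.44) in ECs, Pdgfd (-0.074 to 0.67) and Pdgfra (-0.033 to 0.14) in MSCs and Pdgfrb (-0.27 to 0.66) in MNCs. Differences in RPKM that turned were those of Pdgfa (-1.88 to 3.16), Pdgfb (-8.21 to 1.51), Pdgfd (-7.22 to 23.8), Pdgfra (-0.223 to 0.232) and Pdgfrb (-0.199 to 0.975) in ECs, Pdgfd (-0.811 to 3.87) and Pdgfra (-3.89 to 7.24) in MSCs, and Pdgfb (-0.351 to 0.05) and Pdgfrb (-0.0208 to 0.273) in MNCs. Between populations, Pdgfa in ECs against MSCs ranged from -0.019 to 0.36 and Pdgfc in ECs against MNCs from -1.83 to 2.46. None of the members that turned between genotypes was called in those fits.

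Pairing by replicate number was not visible in expression: deviations of same-numbered libraries correlated between -0.0837 and 0.0947 over 9 pairs of groups. These values cannot exclude that same-numbered libraries of different populations came from 1 mouse, which the sample titles do not state. The main model took the 28 libraries as independent. With the replicate block, 0 genes were called between genotypes in each population and 3404 between ECs and MSCs, the log2 value of Pdgfra between genotypes in ECs was 0.60 and that of Pdgfa between ECs and MSCs was -0.11. Pdgfra between ECs and MNCs and Pdgfb between MSCs and MNCs were not tested in that fit, and it changed no other call of a member. Libraries of 100 or 200 cells and amplified cDNA limit what can be read from members with few counts.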
